A study of Mus musculus with 6 samples.

Results

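The windows around Myc and Mycn, a pair of related proto-oncogenes, were described in ATAC-seq peak lists from mouse embryonic stem cells. ATAC-seq marks open DNA by letting a transposase cut it and insert sequencing adapters. The Myc window was chr15:61750000-62000000 (250 kb) and the Mycn window chr12:12900000-13070000 (170 kb), both on GRCm39. Every deposited peak that overlapped a window was taken in each library, and peaks of the 6 libraries that shared at least 1 bp were merged. This gave 74 regions, 43 in the Myc window and 31 in the Mycn window, of 259376 mouse regions in all.

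All libraries came from E14TG2a cells and fell into 3 genotypes of 2 libraries each, which were Alkbh5 del-cIDR (del-cIDR), Alkbh5 KO (KO) and WT. The del-cIDR allele lacks a part named cIDR, and the series asks what disordered stretches of such demethylases do for where on the genome they act. Every group grew in the same medium with 15% FBS, and LIF was present at 1000 U/ml. The medium also held PD0325901, which blocks MEK, at 1 µM, and CHIR99021, which blocks GSK3, at 3 µM. Before transposition each sample received 10 µl of spike-in nuclei. Nothing in the labels says whether a genotype is 1 clone or several, or whether its 2 libraries came from separate cultures. The spread between replicates may therefore be technical. Alkbh5 itself and pluripotency markers were not analysed here, so neither the genotype nor the cell type was checked from the peaks.

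MYC and MYCN are transcription factors that pair with MAX and bind E-boxes, the sequence CACGTG, near the start of many genes of growth and metabolism. MYC supports self-renewal of mouse embryonic stem cells downstream of LIF, and MYCN can stand in for it there. GSK3, the kinase that CHIR99021 blocks, marks MYC protein for destruction. ALKBH5 removes N6-methyladenosine from RNA, and MYC mRNA is a known carrier of that mark in human cells. Pvt1, the neighbour that follows Myc in RefSeq's gene order, makes a long non-coding RNA. Gene models of GRCm39 were not used here, so no region is assigned to a promoter, exon or intron, and regions are named by position and by distance from the tallest summit of their window.

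The promoter of Mycn is shown because it is the one sequence of the pair in the RefSeq promoter table used here. It spans 250 bases before to 50 after the start of the gene, on the minus strand, at chr12:12941787-12942086 of GRCm38.p6. Those positions belong to another build than the peaks and cannot be laid over them. The capitals mark GC boxes (GGGCGG on either strand), the site that SP1-family factors bind.

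Mycn promoter, 300 bases: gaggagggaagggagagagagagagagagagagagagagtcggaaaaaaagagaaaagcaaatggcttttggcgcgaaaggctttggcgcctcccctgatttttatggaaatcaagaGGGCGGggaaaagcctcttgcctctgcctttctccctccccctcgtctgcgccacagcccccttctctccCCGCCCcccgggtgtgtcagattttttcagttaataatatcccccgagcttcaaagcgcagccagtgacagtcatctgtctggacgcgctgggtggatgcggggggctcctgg

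The first GC box begins 133 bases before the start and the second, in reverse, 63 bases before it. A GC box was found in 35.7% of the 32851 promoters of the table. The sequence was also searched on both strands for an E-box (CACGTG, in 7.15% of promoters), a CCAAT box (CCAAT, 37.4%), a TATA box (TATAAA, 13.6%), an octamer (ATTTGCAT, 1.74%), a TCF motif (CTTTGAT, 3.73%), a STAT motif (TTCCNGGAA, 1.15%), an ESRRB motif (TCAAGGTCA, 0.423%) and a cyclic AMP response element (TGACGTCA, 1.79%). None of these motifs was in this promoter sequence. Its GC content was 56.7%, against a median of 52.7% over all promoters. In a list of 20 genes of the MYC network (partners and rivals of MYC for MAX, and cofactors), all 20 were in the table, with 27 promoters between them. A GC box was found in 21 of these 27 promoters (17 of the genes), a CCAAT box in 9 and a TATA box in 3. The octamer, TCF, STAT and ESRRB motifs and the cyclic AMP response element were in none of them. An E-box was in 7 of the 27, those of Bptf, Kat5, Max, Mlx, Mlxipl, Mnt and Mxd4. Of these, Max is the partner of MYC, and Mnt and Mxd4 compete with it for MAX.

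The authors called peaks in each library on its own. The lists held 157931 and 155128 mouse peaks in del-cIDR, 164639 and 150680 in KO, and 193905 and 184884 in WT. The height of a summit in tags was solved from the deposited fold and p of each peak, and the background it implied was 1.14 and 1.14 tags in del-cIDR, 1.26 and 1.01 in KO, and 1.09 and 1.18 in WT. The lowest summit of a list was 5 or 6 tags, so DNA open to a lesser degree would not be in a list. Where the background around a peak was higher, a call needed more tags. Heights were compared after taking log2 and subtracting, in each library, the median over regions called in all 6 libraries on 16 autosomes (the relative height). That median was 32 and 31 tags in del-cIDR, 33 and 25 in KO, and 32 and 36 in WT.

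Both windows were dense in peaks in every genotype. The Myc window held 30 and 29 peaks in del-cIDR, 33 and 35 in KO, and 30 and 35 in WT, or 29.5 ± 0.707 in del-cIDR, 34 ± 1.41 in KO and 32.5 ± 3.54 in WT (mean ± SD, n = 2 each). The Mycn window held 26 and 28 peaks in del-cIDR, 23 and 25 in KO, and 30 and 26 in WT, or 27.0 ± 1.41 in del-cIDR, 24.0 ± 1.41 in KO and 28.0 ± 2.83 in WT (mean ± SD, n = 2 each). In the Myc window the KO counts stood above both del-cIDR counts and overlapped WT, and in the Mycn window they stood below every other library. Among all windows of the same length tiled along the autosomes, the Myc window ranked between the 75.3 and 93.9 percentile of its own list in peak number, and the Mycn window between the 88.1 and 96.5 percentile. Since the WT lists are longer, these counts are not set against each other as a change.

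Peaks covered 11036 ± 70.7 bp of the Myc window in del-cIDR, 12069 ± 461 bp in KO and 11658 ± 896 bp in WT (SD, n = 2 each). In the Mycn window they covered 11061 ± 139 bp in del-cIDR, 9094 ± 439 bp in KO and 11310 ± 508 bp in WT (SD, n = 2 each). The covered length of the Mycn window was thus smaller in both KO libraries, at 8783 and 9404 bp, than in any other library, where it was at least 10950 bp. A covered length moves with how much was called in a list. The list of KO replicate 1, which covered 8783 bp, was longer than both del-cIDR lists and shorter than both WT lists. The cause was not tested.

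Every library called 20 (46.5%) of the 43 Myc regions, while 8 (18.6%) were found by a single library. Of the 31 Mycn regions, 15 (48.4%) were in all 6 lists and 5 (16.1%) in a single list. Over all mouse regions the shares were 38.3% and 25.2%. The regions called in all 6 had a median width of 563 bp in the Myc window and 716 bp in the Mycn window, against 555 bp over all such regions.

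**Figure D1:**
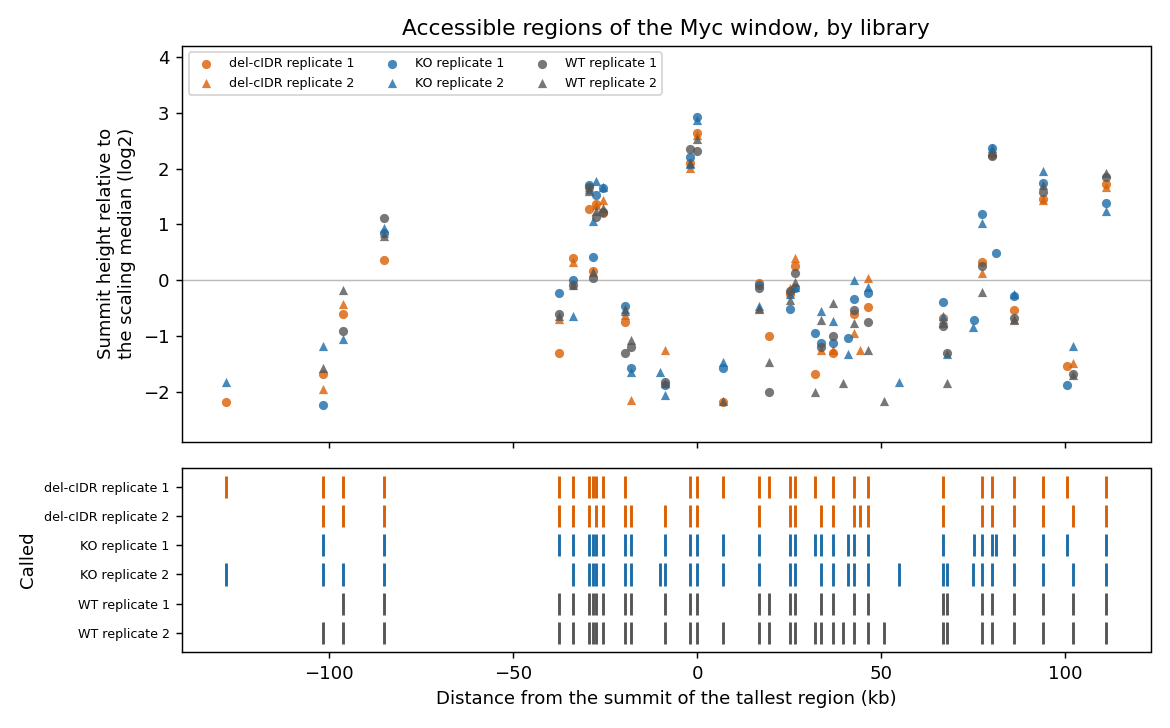
Upper panel, relative summit height (log2, with 0 at the median of the scaling regions of each library) of every region called in the Myc window, against the distance of its summit from that of the tallest region in kb. Colours are genotypes and symbols replicates, and the lower panel marks the libraries in which each region was called. The tallest region, with 183 to 251 tags in KO, is highest in every library but WT replicate 1, and the next tallest lie just before it and 80.2 kb beyond it.

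The deposited fold of a peak, the ratio of its summit to its local background, was ranked within its own list. The fold is the authors' value, and percentiles from lists of different lengths cannot show a change between genotypes. The median percentile of the Myc peaks was 46.7 and 49.7 in del-cIDR, 43.9 and 43.0 in KO, and 51.1 and 48.9 in WT. The median percentile of the Mycn peaks was 37.3 and 30.2 in del-cIDR, 38.4 and 37.4 in KO, and 37.7 and 39.6 in WT. By fold, the Myc peaks were thus near the middle of their lists and the Mycn peaks below it in all 6 libraries.

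The highest fold in the Myc window reached percentile 98.3 and 98.5 in del-cIDR, 97.2 and 98.8 in KO, and 98.8 and 99.3 in WT. In the Mycn window it reached 99.2 and 97.8 in del-cIDR, 94.3 and 93.3 in KO, and 98.7 and 98.0 in WT. In both KO libraries the top fold of the Mycn window therefore ranked lower than in the other 4.

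**Figure D2:**
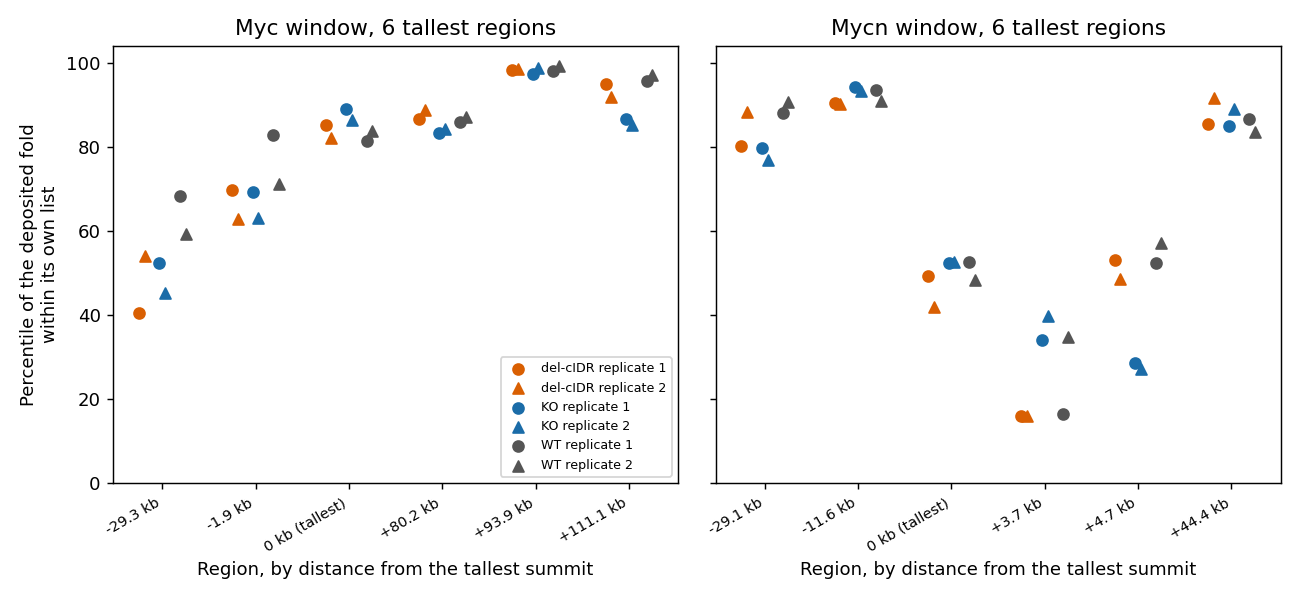
Percentile of the deposited fold within its own list for the 6 tallest regions of the Myc window (left) and the Mycn window (right), ordered by distance from the tallest summit. Points are libraries. The 3 neighbouring regions at 0, 3.66 and 4.67 kb of the Mycn window, 3 of its 4 tallest, lie near or below the middle of the lists.

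By mean height over the 6 libraries, the tallest region of the Myc window was chr15:61884361-61884937, with summits within 14 bp of each other. It had 198 and 189 tags in del-cIDR, 251 and 183 in KO, and 160 and 209 in WT. Its relative height averaged 2.62 ± 0.02 in del-cIDR, 2.90 ± 0.04 in KO and 2.43 ± 0.15 in WT (log2, SD, n = 2 each). Under this scaling the genotypes did not overlap, with KO highest, del-cIDR next and WT lowest. The difference was 0.19 for del-cIDR minus WT, 0.47 for KO minus WT and -0.28 for del-cIDR minus KO, each with an exact two-sided permutation p of 0.333, the smallest that 2 libraries against 2 allow. No difference between genotypes can pass 0.05 in this design, so the differences below are set only against the spread between replicates and against all other regions. Among the 99216 regions called in all 6 libraries, 81.0% had a lower KO minus WT difference than this one. With heights scaled on the spike-in regions in place of mouse regions, its KO minus WT difference was -0.02 and its del-cIDR minus KO difference 0.10. Its del-cIDR minus WT difference was 0.077 with spike-in scaling and 0.068 with scaling on the background of each library, and del-cIDR overlapped WT in both.

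At chr15:61882503-61883000, 1.88 kb before it, lay the third tallest region, whose summit was at base 61882770 in all 6 libraries. Such a shared base was found in 0.707% of all regions called in 6 libraries and in no other region of either window. Its heights were 138 and 125 tags in del-cIDR, 152 and 106 in KO, and 164 and 155 in WT, and its relative heights overlapped between the genotypes. Within a library, the tallest region stood above this neighbour by 0.52 and 0.60 in del-cIDR, by 0.72 and 0.79 in KO, and by -0.04 and 0.43 in WT (log2 ratio of heights, which needs no scaling). The 3 genotypes did not overlap in this ratio, which was highest in KO and lowest in WT. A KO minus WT difference of at least this size, 0.56, was seen in 26.5% of the 25695 pairs of neighbouring regions within 5 kb.

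Further from it, in the lower part of the window, lay a group of 4 regions. The outer members, chr15:61855155-61855427 and chr15:61858624-61859308, had mean heights of 95.3 and 84.2 tags. The widest, chr15:61856675-61857707 (1033 bp), had 82 and 79 tags in del-cIDR, 95 and 86 in KO, and 70 and 85 in WT. Relative to scale it was highest in KO and lowest in WT, with differences of 0.17 for del-cIDR minus WT, 0.47 for KO minus WT and -0.30 for del-cIDR minus KO. With spike-in scaling its KO minus WT difference was -0.023 and its del-cIDR minus KO difference 0.080. The region chr15:61858624-61859308 was also higher in both KO libraries than in WT, by 0.41, and del-cIDR overlapped WT there. With spike-in scaling its KO libraries were both below WT, with a difference of -0.084. The narrow region between them, chr15:61856231-61856449, was called in every library but del-cIDR replicate 2. The local background of these regions was 9.60 to 13.5 tags, so that the fold of chr15:61856675-61857707 ranked between percentile 44.7 and 53.2 although its height was above that of at least 82.0% of the shared regions in each library.

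The region with the largest KO minus WT difference of the window was chr15:61961750-61962052, 77.2 kb beyond the tallest summit. It had 40 and 34 tags in del-cIDR, 75 and 51 in KO, and 38 and 31 in WT. Both KO libraries stood above the other 4, and del-cIDR overlapped WT. The difference was 1.09 for KO minus WT and -0.88 for del-cIDR minus KO, and the KO libraries stayed above the others under all 7 scalings tried, between 0.60 and 1.09 for KO minus WT. Of all shared regions, 2.34% had a KO minus WT difference at least as far from 0. Its fold ranked at percentile 11.7 and 6.17 in del-cIDR, 40.3 and 33.5 in KO, and 9.99 and 0.695 in WT, each within its own list.

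Its neighbour chr15:61964364-61965073, the second tallest region, had 152 and 151 tags in del-cIDR, 170 and 129 in KO, and 149 and 178 in WT. Within a library it stood above the smaller region by 1.93 and 2.15 in del-cIDR, by 1.18 and 1.34 in KO, and by 1.97 and 2.52 in WT (log2 ratio). Both KO ratios were below all others, without overlap. The KO minus WT difference of the ratio was -0.99, and 6.45% of all pairs differed at least as much. The pair holds the region picked for the largest KO minus WT difference of the window, so this ratio is not separate from that difference. A further peak of 46 tags, chr15:61965665-61965835, was called right after this pair in KO replicate 1 alone.

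The last region, chr15:61995538-61996143, went the other way. It had 106 and 99 tags in del-cIDR, 86 and 59 in KO, and 115 and 136 in WT. KO was lowest and WT highest without overlap, with differences of -0.18 for del-cIDR minus WT, -0.57 for KO minus WT and 0.39 for del-cIDR minus KO, and this order held under all 7 scalings. Of all shared regions, 8.11% had a lower KO minus WT difference. In del-cIDR, the region chr15:61978317-61978819 was likewise lower than in WT under all 7 scalings, with a difference of -0.20. It had 88 and 84 tags in del-cIDR, 111 and 97 in KO, and 96 and 118 in WT, and the highest fold of the window in every library but WT replicate 1.

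The region chr15:61930724-61931200, 46.3 kb beyond the tallest summit, had 23 and 32 tags in del-cIDR, 28 and 23 in KO, and 19 and 15 in WT. Both mutants stood above WT without overlap under all 7 scalings, by 0.79 in del-cIDR and 0.83 in KO. The del-cIDR minus WT difference was the highest of the window. The SD of the relative height was 0.37 in del-cIDR, 0.08 in KO and 0.36 in WT. Of all shared regions, 1.83% had a del-cIDR minus WT difference and 7.65% a KO minus WT difference at least as far from 0. WT is the same pair of libraries in both comparisons.

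Over the 20 Myc regions called in all 6 libraries, the del-cIDR libraries were both higher than both WT libraries in 6 and both lower in 3. Among all shared regions the shares were 22.9% higher and 21.3% lower. The KO libraries were both higher than WT in 10 and both lower in 2, against 40.6% and 20.6% of all shared regions. The del-cIDR libraries were both higher than KO in 4 and both lower in 11, against 20.1% and 39.5%. More regions were thus higher than lower in KO over all shared regions too, and their median KO minus WT difference was 0.13.

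That split depended on the scaling. With scaling on spike-in regions the median over all shared regions was -0.36 for KO minus WT, and 7.44% were higher and 60.9% lower. With scaling on the background of each library it was -0.11, with 20.7% higher and 37.7% lower. In the Myc window the KO libraries were then both higher than WT in 2 regions and both lower in 12 with spike-in scaling, and higher in 7 and lower in 8 with background scaling. The del-cIDR minus WT split of the Myc window became 4 higher and 7 lower with spike-in scaling, and 3 higher and 7 lower with background scaling. Over all shared regions, 12.7% were higher and 33.5% lower with spike-in scaling, and 12% higher and 34.9% lower with background scaling. For del-cIDR minus KO it became 8 higher and 1 lower with spike-in scaling, and 4 higher and 8 lower with background scaling. Over all shared regions, 52.1% were higher and 12.6% lower with spike-in scaling, and 28.1% higher and 28.9% lower with background scaling.

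Under all 7 scalings, the KO libraries were both higher than WT in 2 of the 20 Myc regions and both lower in 2, against 7.44% and 19.7% of all shared regions. The del-cIDR libraries were both higher than WT in 3 and both lower in 3, against 10.4% and 17.5%, and both higher than KO in 4 and both lower in 1, against 19.4% and 11.3%. Besides the regions named above, these included chr15:61850659-61851126, with 42 and 39 tags in del-cIDR, 33 and 16 in KO, and 30 and 34 in WT. There del-cIDR stood above the other 4 libraries, by 0.45 against WT and 0.68 against KO. The region chr15:61910840-61911421 had 38 and 41 tags in del-cIDR, 30 and 23 in KO, and 35 and 35 in WT, with del-cIDR highest and KO lowest. The region chr15:61921131-61921679 had 13 and 13 tags in del-cIDR, 15 and 15 in KO, and 16 and 27 in WT. Its del-cIDR minus WT difference of -0.57 was the lowest of the window, and 4.44% of all shared regions had a lower one. The WT libraries were far apart there, with relative heights of -1 and -0.42, against -1.30 and -1.25 in del-cIDR.

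The median difference over the 20 regions was 0.07 for del-cIDR minus WT, 0.15 for KO minus WT and -0.19 for del-cIDR minus KO. Over the shared regions within 5 Mb of the window it was 0.03 for del-cIDR minus WT, 0.11 for KO minus WT and -0.06 for del-cIDR minus KO. Over chromosome 15 it was 0.02 for del-cIDR minus WT, 0.10 for KO minus WT and -0.08 for del-cIDR minus KO. Over all shared regions it was 0.01 for del-cIDR minus WT, 0.13 for KO minus WT and -0.12 for del-cIDR minus KO. With spike-in scaling the del-cIDR minus KO median of the window was 0.19, and that of all shared regions 0.26.

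**Figure D3:**
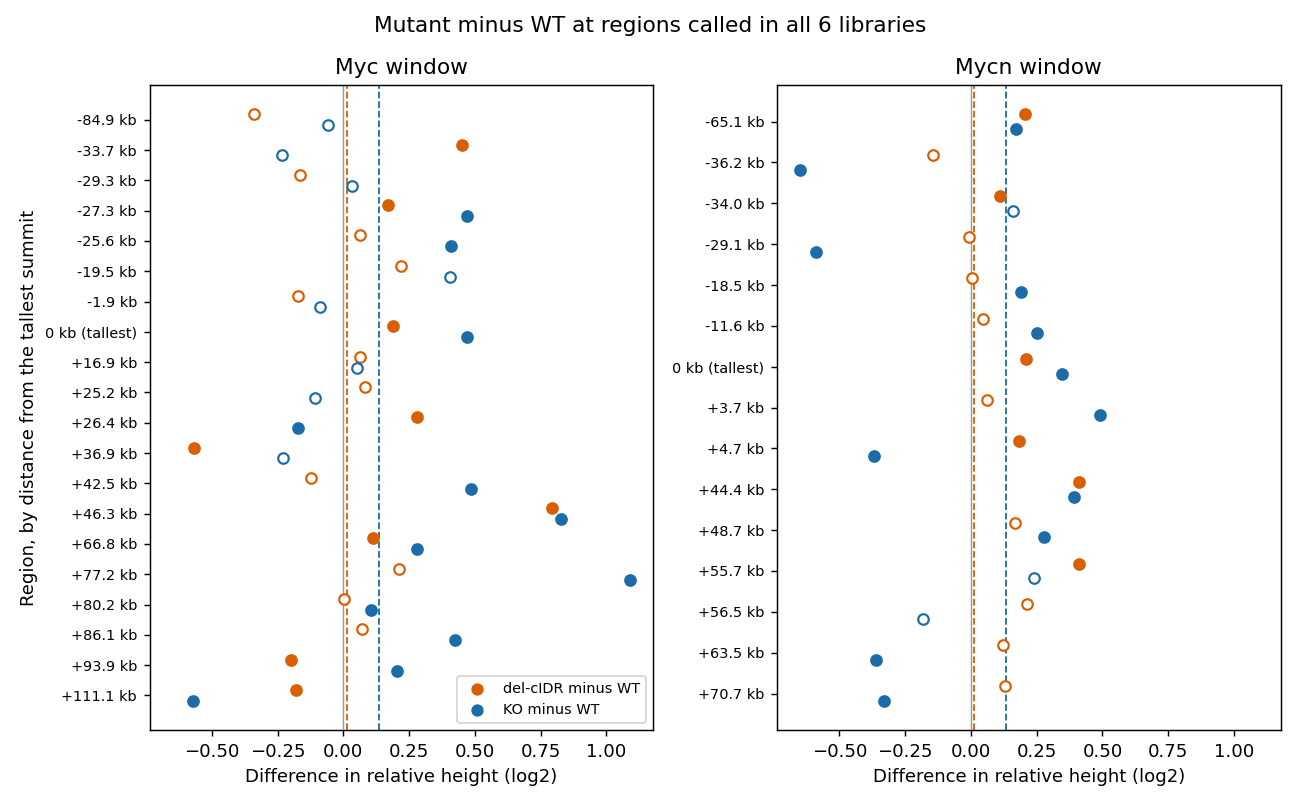
Difference in relative height (log2) of del-cIDR minus WT and KO minus WT at the regions called in all 6 libraries, 20 in the Myc window (left) and 15 in the Mycn window (right), by distance from the tallest summit. Filled points are regions where the 2 libraries of each genotype do not overlap, and dashed lines are the medians over all shared regions, 0.01 and 0.13. In the Mycn window 7 filled KO points lie above 0 and 5 lie between -0.65 and -0.33, and no filled del-cIDR point lies below 0.

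Calls shared by the 2 libraries of a genotype and absent from those of another were few in the Myc window. The region chr15:61952038-61952720 was called in both WT libraries, with 13 and 10 tags, and in KO replicate 2 with 10, but in neither del-cIDR library. It was the 1 region of 43 with that WT and del-cIDR pattern, which held for 5.33% of all mouse regions. The region chr15:61904064-61904357 was called with 16 tags in del-cIDR replicate 1 and 8 and 13 in WT, and in neither KO library, a WT and KO pattern seen in 7.22% of all regions. The region chr15:61925528-61925790 was called in KO only, with 16 and 10 tags. The pattern of both KO and neither WT libraries held for 1.89% of all regions, and that of both KO and neither del-cIDR for 3.5%. No Myc region was called in both del-cIDR and neither WT libraries (0.931% of all regions) or in both del-cIDR and neither KO libraries (3.59%). All 3 of these regions had summits of at most 16 tags.

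**Figure D4:**
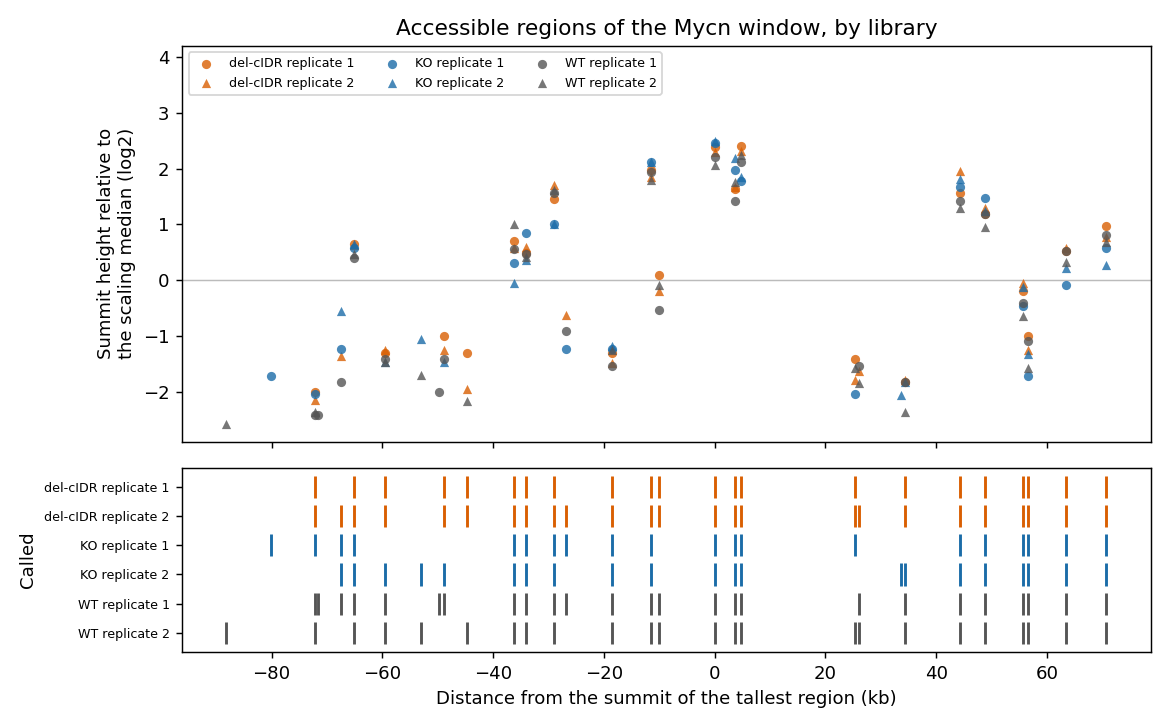
Upper panel, relative summit height (log2, with 0 at the median of the scaling regions of each library) of every region called in the Mycn window, against the distance of its summit from that of the tallest region in kb. Colours are genotypes and symbols replicates, and the lower panel marks the libraries in which each region was called. The 2 tallest regions by mean height lie at 0 and 4.67 kb, and at 4.67 kb both KO points (113 and 90 tags) lie below the other 4.

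In the Mycn window, 3 of the 4 tallest regions lay side by side. The tallest region by mean height, chr12:12988508-12989212, had 168 and 152 tags in del-cIDR, 182 and 141 in KO, and 147 and 151 in WT. Its relative height averaged 2.34 ± 0.07 in del-cIDR, 2.48 ± 0.02 in KO and 2.13 ± 0.09 in WT (log2, SD, n = 2 each), in which the genotypes did not overlap. The difference was 0.21 for del-cIDR minus WT, 0.35 for KO minus WT and -0.14 for del-cIDR minus KO. Of all shared regions, 70.7% had a lower KO minus WT difference, so this region was close to the bulk. With spike-in scaling its KO minus WT difference was -0.15 and its del-cIDR minus KO difference 0.24. Its del-cIDR minus WT difference was 0.097 with spike-in scaling and 0.088 with background scaling, and del-cIDR overlapped WT in both. Del-cIDR was below KO without overlap in 2 of the 7 scalings.

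The second tallest region, chr12:12993151-12993888, lay 4.67 kb further on. It had 170 and 154 tags in del-cIDR, 113 and 90 in KO, and 139 and 170 in WT. Relative heights averaged 2.36 ± 0.07 in del-cIDR, 1.81 ± 0.05 in KO and 2.18 ± 0.09 in WT (log2, SD, n = 2 each). Both KO libraries were below the other 4 under all 7 scalings, with a difference of -0.37 for KO minus WT and 0.55 for del-cIDR minus KO. Of all shared regions, 14.9% had a lower KO minus WT difference and 92.0% a lower del-cIDR minus KO difference. Under the main scaling, the KO libraries thus held opposite positions at the 2 tallest regions of the window, highest at the one and lowest at the other.

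Between these lay chr12:12991649-12993003, which held a pair of summits in 5 of the 6 libraries. The summit nearer to the second tallest region had 99 and 98 tags in del-cIDR, 129 and 114 in KO, and 84 and 122 in WT. The other summit had 98 tags in del-cIDR replicate 1, 120 and 75 in KO, and 85 and 85 in WT, and in del-cIDR replicate 2 both fell into 1 peak. By its highest summit, the region differed by 0.49 for KO minus WT and by -0.43 for del-cIDR minus KO, without overlap, and del-cIDR overlapped WT. With spike-in scaling these differences were 0.00074 and -0.053, and the libraries overlapped in both comparisons. KO and WT also overlapped with scaling on the background of each library, where their difference was 0.25.

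The ratio of the second tallest region to this neighbour, 147 bp away, was taken within each library, where no scaling enters. On the log2 scale it was 0.78 and 0.65 in del-cIDR, -0.19 and -0.34 in KO, and 0.71 and 0.48 in WT. The second tallest region was thus the taller of the pair in every del-cIDR and WT library and the shorter in both KO libraries. The means were 0.72 ± 0.09 in del-cIDR, -0.27 ± 0.11 in KO and 0.59 ± 0.16 in WT (SD, n = 2 each). The difference was -0.86 for KO minus WT and 0.98 for del-cIDR minus KO. Over all 25695 neighbouring pairs, 10.2% and 6.36% differed at least as much in these comparisons, and KO and WT did not overlap in 53.0%. A difference of this size was therefore found at many pairs in the genome.

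**Figure D5:**
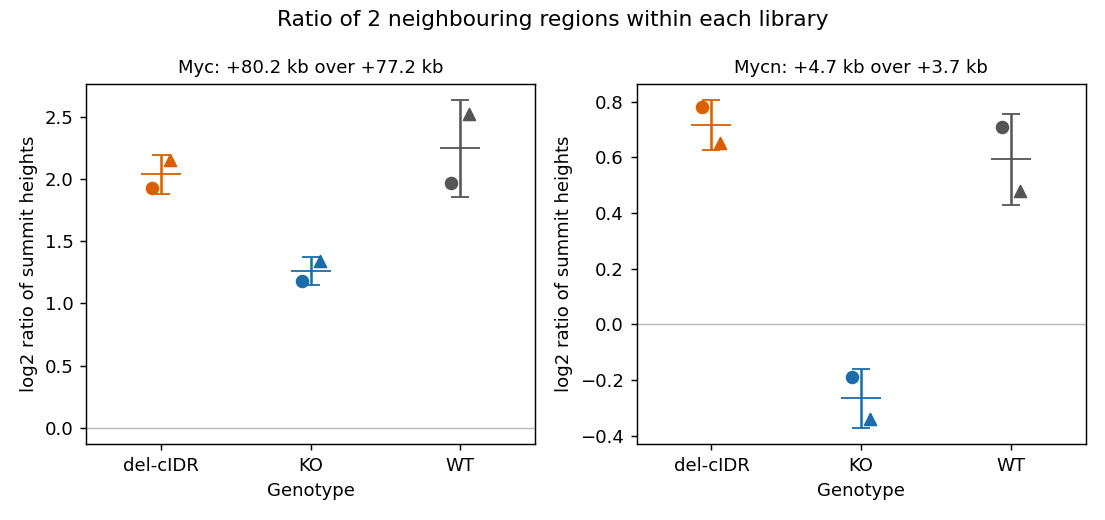
Log2 ratio of the summit heights of neighbouring regions within each library, in the Myc window (chr15:61964364-61965073 over chr15:61961750-61962052, left) and in the Mycn window (chr12:12993151-12993888 over chr12:12991649-12993003, right). Points are libraries, with the mean and SD of each genotype (n = 2). In both panels the KO libraries lie below the other 4, and in the Mycn window the KO ratios, -0.19 and -0.34, are below 0.

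These 3 adjoining Mycn regions stood on a raised local background. It was 21.1 to 22.7 tags in del-cIDR, 17.5 to 23.5 in KO and 19.4 to 21 in WT, or 16.9 to 19.9 times the background of the library. Their folds were therefore low for their height. At the tallest region the fold ranked at percentile 49.4 and 41.9 in del-cIDR, 52.5 and 52.6 in KO, and 52.6 and 48.3 in WT, although its height was above that of at least 95.2% of the shared regions in each library. At the second tallest region it ranked at 53.2 and 48.6 in del-cIDR, 28.7 and 27.2 in KO, and 52.4 and 57.0 in WT. The highest fold percentile of the window in del-cIDR and WT belonged to chr12:13059367-13059885, where the local background was at most 1.53 tags.

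In 4 further Mycn regions both KO libraries were below both WT and both del-cIDR libraries under all 7 scalings. The region chr12:12959470-12960145 had 88 and 101 tags in del-cIDR, 66 and 50 in KO, and 95 and 110 in WT. Its difference was -0.59 for KO minus WT and 0.58 for del-cIDR minus KO. The region chr12:12952373-12952915 had 52 and 46 tags in del-cIDR, 41 and 24 in KO, and 47 and 72 in WT. Its KO minus WT difference, -0.65, was the lowest of the window, and 6.32% of all shared regions had a lower one.

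The others lay at the far end of the window. The region chr12:13052089-13052584 had 46 and 46 tags in del-cIDR, 31 and 29 in KO, and 46 and 45 in WT, with a KO minus WT difference of -0.36. The region chr12:13059367-13059885 had 63 and 53 tags in del-cIDR, 49 and 30 in KO, and 56 and 58 in WT, with a KO minus WT difference of -0.33. In all 4, del-cIDR overlapped WT under the main scaling. In other scalings del-cIDR was above WT without overlap at chr12:13052089-13052584 (3 of 7) and chr12:13059367-13059885 (1 of 7). It was below WT without overlap at chr12:12959470-12960145 (1 of 7).

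Regions higher in a mutant than in WT were also present. The region chr12:13032922-13033484 had 95 and 120 tags in del-cIDR, 105 and 88 in KO, and 85 and 88 in WT, with differences of 0.41 for del-cIDR minus WT and 0.39 for KO minus WT. Del-cIDR stayed above WT there under all 7 scalings, whereas the KO minus WT difference was -0.10 with spike-in scaling. The region chr12:13043945-13044935 had 28 and 30 tags in del-cIDR, 24 and 23 in KO, and 24 and 23 in WT. There del-cIDR was above WT by 0.41, again under all 7 scalings, and KO overlapped WT. The third tallest region, chr12:12977027-12977742, had 126 and 111 tags in del-cIDR, 143 and 108 in KO, and 122 and 125 in WT. The KO minus WT difference there was 0.25, and -0.24 with spike-in scaling, and del-cIDR overlapped WT under the main scaling.

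Over the 15 Mycn regions called in all 6 libraries, the del-cIDR libraries were both higher than WT in 6 and both lower in 0, against 22.9% and 21.3% of all shared regions. The KO libraries were both higher in 7 and both lower in 5, against 40.6% and 20.6%. The del-cIDR libraries were both higher than KO in 6 and both lower in 4, against 20.1% and 39.5%. With spike-in scaling the KO minus WT split of the window was 0 higher and 10 lower, against 7.44% and 60.9% of all shared regions, and with background scaling 2 higher and 6 lower, against 20.7% and 37.7%. The del-cIDR minus KO split was 13 higher and 0 lower with spike-in scaling, against 52.1% and 12.6% of all shared regions, and 8 higher and 1 lower with background scaling, against 28.1% and 28.9%. For del-cIDR minus WT it was 3 higher and 1 lower with spike-in scaling, against 12.7% and 33.5%, and 2 higher and 0 lower with background scaling, against 12% and 34.9%.

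Under all 7 scalings, KO was both lower than WT in 5 of the 15 Mycn regions (33.3%) and higher in 0, against 19.7% and 7.44% of all shared regions. Under the same condition, del-cIDR was both higher than KO in 6 (40.0%) and lower in 0, against 19.4% and 11.3%, and both higher than WT in 2 and lower in 0, against 10.4% and 17.5%. The comparisons with KO share the KO libraries, so the 5 regions low against WT and the 6 low against del-cIDR are not independent. The median difference over the 15 regions was 0.13 for del-cIDR minus WT, 0.17 for KO minus WT and 0.03 for del-cIDR minus KO. Over the shared regions within 5 Mb of the window it was 0.04 for del-cIDR minus WT and 0.08 for KO minus WT. For del-cIDR minus KO it was -0.04 there. Over chromosome 12 it was -0.05 for del-cIDR minus WT, 0.11 for KO minus WT and -0.18 for del-cIDR minus KO.

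In the full lists, the few calls that separated genotypes in the Mycn window were all missing in KO. With lists of equal length, del-cIDR and WT were separated at a region too. The region chr12:12978787-12979085, 10.0 kb before the tallest summit, was called with 34 and 27 tags in del-cIDR and 22 and 34 in WT, and in neither KO library. Its local background was 5.68 to 6.57 tags in the libraries that called it. A KO summit above the lowest of its list could therefore go uncalled there. The region chr12:12943907-12944264 was called with 13 and 8 tags in del-cIDR and with 8 in WT replicate 2, and in no KO library. The region chr12:13014753-13015023 was called with 10 tags in del-cIDR replicate 2 and with 11 and 10 in WT, and in no KO library. Thus 2 of 31 regions (6.45%) were called in both WT and neither KO libraries, against 7.22% of all regions, and 2 (6.45%) in both del-cIDR and neither KO libraries, against 3.59%. The first of them is the tallest of the 6 regions of this kind in the 2 windows.

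Summits lay at similar positions in the 6 libraries. In regions called in all 6 libraries, the distance between the outermost summits had a median of 79.5 bp in the Myc window and 76.0 bp in the Mycn window, against 69.0 bp over all shared regions. The widest was 515 bp in the Myc window, at chr15:61926614-61927406, and 699 bp in the Mycn window, at chr12:12991649-12993003, where the highest summit was that of the far peak in WT replicate 1 alone.

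The median gap between the 2 libraries of a genotype in relative height was 0.11 in del-cIDR, 0.13 in KO and 0.17 in WT over the 20 Myc regions, and 0.13 in del-cIDR, 0.22 in KO and 0.13 in WT over the 15 Mycn regions. Over all shared regions it was 0.20 in del-cIDR, 0.20 in KO and 0.18 in WT.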

How the data were processed

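ATAC-seq was run on 6 libraries of E14TG2a cells, 2 per genotype, and groups and replicate numbers were taken from the sample titles. Per the submitters' processing notes, the tools were fastp, BWA, SAMtools, Picard, MACS2 and featureCounts on GRCm39. Versions and settings were not given in the sources used here, nor was any shift of reads to the cut site. The authors deposited 1 peak list per library, without pooling, with a score, a fold ratio of summit to local background, the −log10 of p and of q, and the summit position. By the deposited −log10 q values, every peak had a q of at most 0.05. The score was not used, and the deposited fold was ranked within each list.

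Heights in tags and local backgrounds were solved from the deposited fold and p in the form MACS2 uses (1 tag added to both). They came out whole within 0.1 in 100% of 1016776 peaks. The solver was checked on simulated data. Total reads are not analysed here, so no interval for counting error is given. Peaks sharing at least 1 bp were merged, and a region took its highest peak in each library. Scaling used 78451 regions called in all 6 libraries on the 16 autosomes other than 6, 8 and 11. Genotypes were compared by the exact two-sided permutation test on mean relative height, whose smallest p for 2 libraries against 2 is 0.333, and by whether their libraries overlap. The share of all regions whose libraries do not overlap is printed beside each count of such regions.

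The alternatives were a −log10 q of at least 5, lists of equal length, an overlap of 50% of the shorter peak, the fold in place of the height, leaving out each library, the replicate number as a block, and 6 other scalings. Those were on all chromosomes, the gene's own chromosome, regions of at least 20 tags, spike-in regions, the median of ratios and the background of each library, the last 2 chosen after seeing the data. The members and lists were chosen with earlier results of these data known. The rule named the 6 tallest regions of each window and those that the 2 libraries of a genotype shared and another genotype lacked. Other regions were named after their values were seen. The plan set promoters as the main results, and with no GRCm39 gene models used here the tallest region of each window took their place, chosen after seeing the data. Promoter heights of the MYC network, of neighbouring genes and of cell type markers, and genes of similar pattern, are not analysed here. Sequences are from RefSeq on GRCm38.p6. The work used Python 3.11.15, numpy 2.4.6, pandas 2.3.3, scipy 1.17.1 and matplotlib 3.10.9.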

Additional observations from a re-analysis of the deposited data

How the results depend on the processing

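Where the libraries of 2 genotypes did not overlap, the relative heights of the 6 tallest regions of each window kept their sign in every setting but those given here, and with 2 libraries a genotype no setting can pass 0.05. Spike-in scaling turned the tallest Myc region (KO minus WT -0.022, del-cIDR minus KO 0.10) and the tallest Mycn region (KO minus WT -0.15, del-cIDR minus KO 0.24). It also turned the second tallest Myc region (KO minus WT -0.39, del-cIDR minus KO 0.28), chr15:61978317-61978819 (KO minus WT -0.29), chr12:12977027-12977742 (KO minus WT -0.24, del-cIDR minus KO 0.18) and chr12:13032922-13033484 (KO minus WT -0.10). Scaling on the background of each library turned the second tallest Myc region (KO minus WT -0.14, del-cIDR minus KO 0.020) and chr15:61978317-61978819 (KO minus WT -0.037). With the fold in place of the height, the second tallest Myc region gave 0.12 for del-cIDR minus KO and chr15:61978317-61978819 gave 0.027 for del-cIDR minus WT. The cause was not tested. Peak counts, whose differences were -3 (Myc) and -1 (Mycn) for del-cIDR minus WT and 1.5 and -4 for KO minus WT, turned with list length or threshold. With lists of equal length the differences were 1 (Myc) and 5 (Mycn) for del-cIDR minus WT and 2 (Mycn) for KO minus WT. At a −log10 q of at least 5 they were -0.5 for KO minus WT in the Myc window and 1 for del-cIDR minus WT in the Mycn window. Without WT replicate 1 they were -1 for KO minus WT in the Myc window and 1 for del-cIDR minus WT in the Mycn window. Leaving out each library in turn gave Myc differences of -5.5 to -0.5 for del-cIDR minus WT, -1 to 4 for KO minus WT and -5.5 to -3.5 for del-cIDR minus KO, and Mycn differences of -3 to 1, -6 to -2 and 2 to 4 in those comparisons. Regions shared by the 2 libraries of a genotype and absent from those of the other numbered, in the Myc window, 0 for del-cIDR against WT and 2 for del-cIDR against KO with lists of equal length, 0 for KO against WT and 0 for del-cIDR against KO at a −log10 q of at least 5, and 2 for del-cIDR against KO when an overlap of 50% was required. In the Mycn window they numbered 1 for del-cIDR against WT and 1 for del-cIDR against KO with lists of equal length. Without 1 library a genotype needs only 1 call, and they ranged from 0 to 7, 2 to 7 and 1 to 7 (Myc) and from 0 to 4, 2 to 5 and 2 to 6 (Mycn) for del-cIDR against WT, KO against WT and del-cIDR against KO. The tallest regions ranged from 0.10 to 0.32 (Myc) and 0.16 to 0.31 (Mycn) for del-cIDR minus WT and from 0.36 to 0.58 and 0.28 to 0.41 for KO minus WT. With the replicate number as a block the differences are the same by construction (0.47 for KO minus WT at the tallest Myc region) and the smallest exact p is 0.5. Deviations of same-numbered libraries were uncorrelated over regions (-0.01, -0.0002 and 0.005 over the 3 pairs of genotypes). Such a correlation is blind to a shift of a whole library, so whether the numbers pair the libraries is not known.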
